A study of Mus musculus with 60 samples.

Results

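The cytosolic ribosomal protein genes, which encode the protein parts of the ribosome that translates nuclear mRNAs, were compared between MSTN-null and wild-type mice at 3 time points. Members were the genes whose single gene symbol in the array's platform annotation had the form Rpl or Rps followed by a number (with or without a final a or x), or was Rplp0, Rplp1, Rplp2 or Rpsa. The rule used symbols only and no measured value. It found 42 genes on 94 probe sets, of 18193 genes with at least 1 single-gene probe set and of 45037 probe sets tested. RefSeq lists 76 mouse protein-coding genes of that form. Of the other 34, 27 occurred only on probe sets that name several genes, among them Rpl3, Rpl5 and Rplp1, and they were not analysed here. For each member the single-gene probe set with the highest mean over the 10 pools of a time point was used. The 110 probe sets that name a gene of this form together with other genes were left out, also where that gene was a member. A member can thus be read on a dimmer probe set than others that name it. A probe set is the group of short probes on an Affymetrix array that together measure 1 transcript.

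The MSTN-null animals carried a null allele of myostatin (Mstn), a secreted inhibitor of muscle growth, and the others were wild-type, all on the C57BL/6J background. For both genotypes, RNA was taken from whole embryos 13.5 days post coitum (d.p.c.), from the hindquarters of embryos aged 17.5 d.p.c., and from the pectoralis muscle 35 days after birth (d35). Each of the 5 pools per genotype and time point held RNA of 3 animals and was hybridised to chip A and chip B of the MOE430 set, giving 60 arrays for 30 pools. The null allele is a germline one, carried by every tissue, and pooling leaves the spread between single animals unseen.

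The cytosolic ribosome joins a small subunit, whose proteins are named Rps, to a large subunit, whose proteins are named Rpl. Cells make these proteins in near-equal numbers, and ribosome number sets the protein-making capacity of growing muscle. Vertebrate ribosomal protein mRNAs carry a pyrimidine stretch at their 5′ end, the TOP motif, through which mTOR complex 1 and the RNA-binding protein Larp1 control their translation. Arrays read mRNA level only, so control at translation lies outside these measurements.

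Several pools stood apart and are named beside the results they touch. At 17.5 d.p.c. the mean level of 11 liver transcripts was 7.874 in MSTN-null pool 5, where pools 1 to 4 of that genotype had 11.27 to 12.23, against 11.3 to 12.94 in the wild-type pools (log2 intensity). The chip B array of wild-type pool 1 at 17.5 d.p.c. correlated with the other arrays of its time point at a median r of 0.9525, where the other chip B arrays of that time point had 0.9922 to 0.994. On chip A of that age, MSTN-null pools 4 and 5 had 0.982 and 0.9818, where the other arrays had 0.9882 to 0.9919, and wild-type pool 5 had the largest actin 3′ minus 5′ differences (0.538 on chip A and 0.734 on chip B), a sign of RNA or labelling quality. At d35, wild-type pool 2 had a mean level of 8.53 over 8 B cell markers, against 6.566 to 7.197 in the MSTN-null pools and 6.764 to 7.654 in the other wild-type pools. Of the 14 skeletal muscle markers, all were measured. Their mean level was 12.47 to 12.58 in the MSTN-null and 12.36 to 12.5 in the wild-type pools at d35.

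No ribosomal protein gene passed the test for a difference between the genotypes at any time point. With limma fitted over all 45037 probe sets and Storey q-values called at 0.05, 0 of 42 members were higher and 0 were lower in MSTN-null mice. This held for each of the 3 ages. The smallest q among members was 0.307 at 13.5 d.p.c., 1 at 17.5 d.p.c. and 0.0774 at d35. The Benjamini-Hochberg adjustment also called 0 at each time point. Over all probe sets, 0.0266% were called higher and 0.513% lower in MSTN-null embryos at 13.5 d.p.c., 0% and 0% at 17.5 d.p.c., and 2.08% and 2.5% at d35. Before adjustment, p was under 0.05 for 1 member (2.38%) at 13.5 d.p.c., where 11.3% of all probe sets reached it, and for 1 member (2.38%) at 17.5 d.p.c., where 2.43% did. At d35 it was under 0.05 for 4 members (9.52%), against 17.9% of all probe sets. All 94 probe sets of the members together gave 0 calls as well.

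The estimated differences were small for most members. All differences here are log2 MSTN-null minus wild-type, the reverse of the direction in which the study gives its ratios. They ran from -0.05 (Rps19) to 0.22 (Rpl14) at 13.5 d.p.c., from -0.18 (Rpl27a) to 0.30 (Rps6) at 17.5 d.p.c. and from -0.15 (Rps20) to 0.26 (Rps16) at d35. The 95% interval lay wholly within a 1.2-fold change either way for 41 of 42 members at 13.5 d.p.c., for 32 at 17.5 d.p.c. and for 32 at d35. Within a 1.1-fold change it held 32, 11 and 7 members at these 3 time points. For the other members the interval reached past that fold, so a change of that size was not excluded. The intervals concern array signal, and 33 of the 42 members lay in the brightest 5% of probe sets. Whether signal that bright follows mRNA amount in proportion was not tested.

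**Figure D1:**
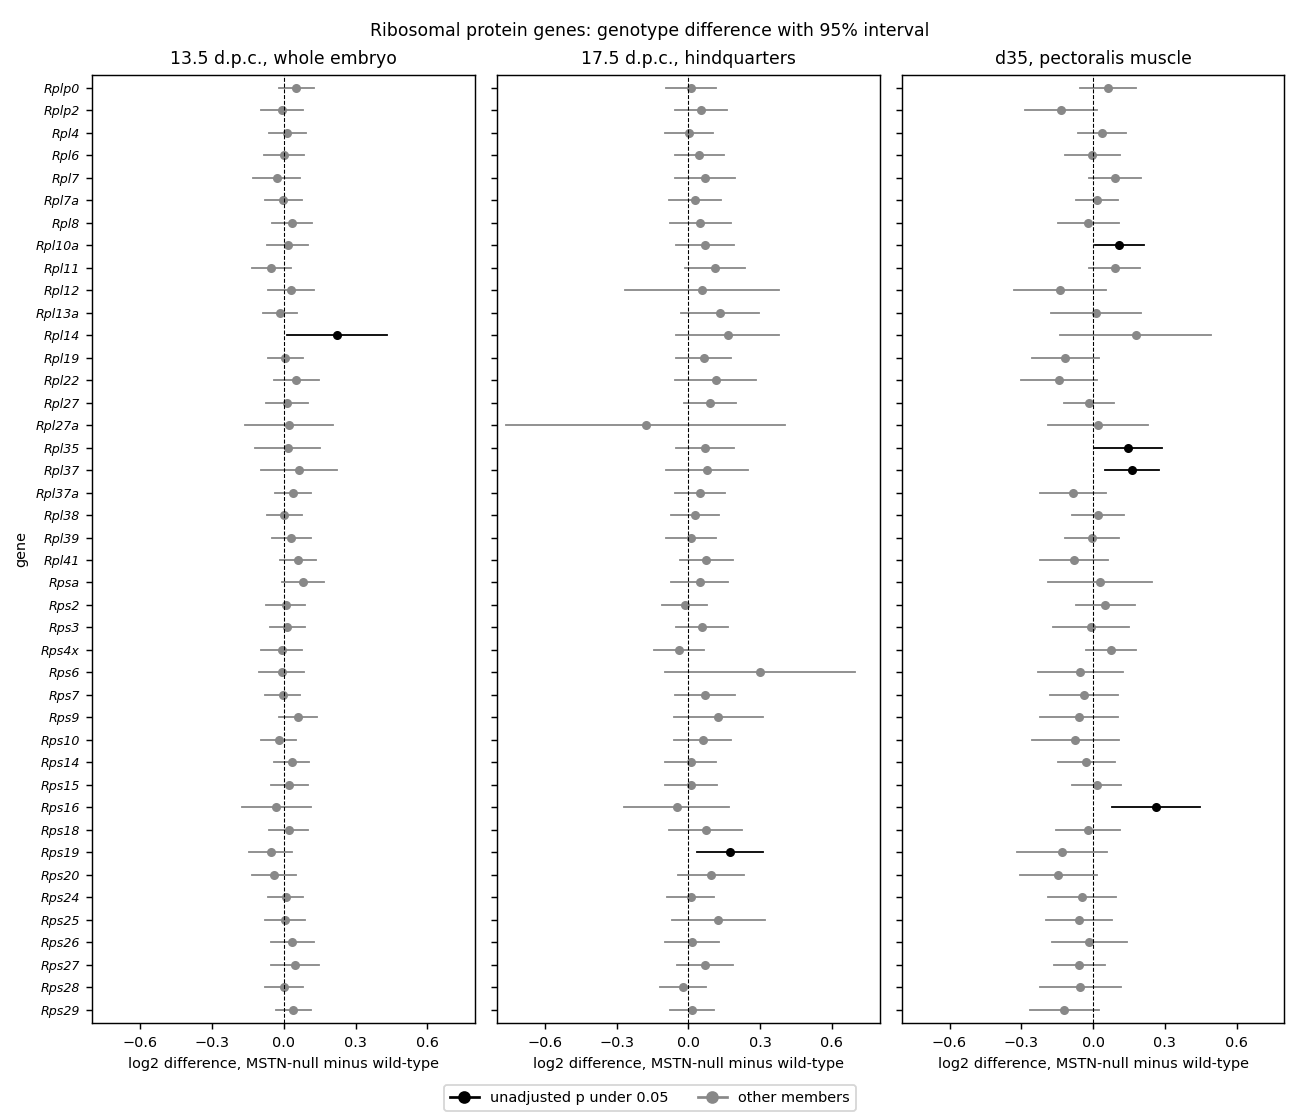
Log2 difference between MSTN-null and wild-type pools (x axis) for each of the 42 ribosomal protein genes (y axis, large subunit above small subunit) at the 3 time points. Points are limma estimates and bars 95% intervals from 5 pools per genotype. Black marks the members with an unadjusted p under 0.05, of which there are 1, 1 and 4. None reached a q under 0.05, and the widest intervals belong to Rpl27a and Rps6 at 17.5 d.p.c.

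The members' probe sets were among the brightest of the arrays in every tissue. Of the 42, 33 lay in the brightest 5% of probe sets at each time point. The highest were Rpl41, Rps29, Rpl4 and Rpl7a in whole embryos (means of 13.9 to 14.25 for MSTN-null and 13.9 to 14.2 for wild-type). In hindquarters they were Rpl41, Rps29, Rpl37a and Rps28. In muscle they were Rps28, Rpl41, Rps29 and Rpl4 (means of 12.84 to 12.95 for MSTN-null and 12.8 to 13.02 for wild-type). The dimmest probe set, that of Rps16, averaged 5.888 in MSTN-null and 5.919 in wild-type whole embryos and was brighter than only 18.3% of probe sets. Levels of different probe sets reflect the probes as well as the transcripts, so they give no order of abundance. The values appear to have been normalised separately at each time point, so levels are not compared between tissues.

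A pyrimidine stretch was more common at the annotated starts of these genes than at those of all genes. The RefSeq promoter table (GRCm38.p6) held 37 of the 42 members, and the first start listed for each was used. A run of at least 5 C or T bases at the annotated start (holding the first transcribed base or a base beside it) was found in 15 of 37 members (40.5%), against 18.8% of 27018 genes. The letters CCGGAAG, the core that ETS-family factors recognise, were present on either strand between positions -250 and 50 from the start in 18 members (48.6%), against 9.12% of all genes. The letters TATAAA on the transcribed strand, 40 to 15 bases before the start, were found in 0 members and in 2.22% of genes. For CACGTG, the E-box that Myc binds and which reads the same on both strands, the shares were 8.11% (3 members) and 7.24%. The 60 bases before and 15 after the start are shown for 6 members whose values are described in the following paragraphs. Capitals mark the C or T run at the start or the CCGGAAG core on either strand.
Rpl35 (chr2:39005117-39005191, minus strand): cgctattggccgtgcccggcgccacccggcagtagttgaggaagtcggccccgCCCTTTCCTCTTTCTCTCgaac
Rpl14 (chr9:120571457-120571531, plus strand): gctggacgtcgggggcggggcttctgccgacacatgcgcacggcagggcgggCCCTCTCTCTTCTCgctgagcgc
Rps6 (chr4:86857353-86857427, minus strand): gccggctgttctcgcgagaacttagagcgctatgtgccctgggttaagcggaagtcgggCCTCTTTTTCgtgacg
Rpl37 (chr15:5116553-5116627, plus strand): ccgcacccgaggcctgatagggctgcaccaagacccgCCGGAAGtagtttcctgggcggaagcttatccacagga
Rpl11 (chr4:136053379-136053453, minus strand): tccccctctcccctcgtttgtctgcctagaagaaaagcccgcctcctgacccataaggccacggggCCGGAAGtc
Rps19 (chr7:24884532-24884606, plus strand): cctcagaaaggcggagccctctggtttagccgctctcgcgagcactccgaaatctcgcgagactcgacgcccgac
The runs of Rpl35, Rpl14 and Rps6 were 18, 14 and 10 bases long. Rpl37, Rpl11 and Rps19 had none of 5 or more bases at the start listed. These matches describe the letters of the annotated window and no factor's binding. A run placed away from the first listed start, or at another start (Rps19 had 3 listed), was not counted. A member without a counted run is thus not shown to lack the TOP motif.

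The members varied least in whole embryos (13.5 d.p.c.), as did all probe sets. The SD between pools of a genotype had a median of 0.0465 over the members and 0.077 over all probe sets (log2). These medians were 0.0663 and 0.131 at 17.5 d.p.c., and 0.106 and 0.0993 at d35. The median difference was 0.015, a 1.01-fold ratio, with 28 of 42 members above 0. Over all probe sets the median was -0.00052 and 49.7% were above 0, and with 1 probe set per gene 57.3% were. Of the 413 other probe sets brighter than 12, 49.9% were. The mean of the 42 members was 12.468 ± 0.0176 in MSTN-null and 12.45 ± 0.0144 in wild-type pools (SD, n = 5 each), with the highest wild-type pool at 12.47 and the MSTN-null pools between 12.448 and 12.483.

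Rpl14, a large-subunit protein, was the member with the smallest p at this stage. Its probe set read 9.17, 9.19, 9.14, 9.04 and 9.26 in MSTN-null pools 1 to 5, against 9.26, 9.06, 8.56, 8.76 and 9.04 in wild-type pools. The groups overlapped, and the spread was mostly that of the wild-type pools (SD 0.273, against 0.0799 in MSTN-null). The fitted ratio was 1.167-fold (95% interval 1.009 to 1.35) with a q of 0.307 by limma. Rpl41, the smallest ribosomal protein, differed by 0.06 and Rpsa, a small-subunit protein also known as the laminin receptor, by 0.08, with q of 0.431 and 0.367.

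For 2 of 42 members the 5 MSTN-null pools all lay above the 5 wild-type pools, and for 0 all lay below, where 0.735% and 1.66% of all probe sets did. The 2 were Rplp0 and Rps29. Rplp0, the base protein of the stalk that recruits translation factors, read 13.48, 13.47, 13.47, 13.47 and 13.51 in MSTN-null embryos and 13.43, 13.43, 13.4, 13.45 and 13.42 in wild-type embryos. The gap was narrow, and the difference of 0.05 (SE 0.0339) had a q of 0.45. Rps29 read 14.14 to 14.19 in MSTN-null and 14.07 to 14.14 in wild-type embryos, with a q of 0.541. The same actin measure of RNA or labelling quality was 0.201 to 0.346 in MSTN-null and 0.0677 to 0.214 in wild-type embryos on chip A. On chip B it was 0.29 to 0.318 in MSTN-null and 0.16 to 0.234 in wild-type embryos, without overlap. Its part in the members' values was not tested.

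The members with the smallest p among those lower in MSTN-null embryos were Rpl11, Rps19 and Rps20. Rpl11, which with Rpl5 and the 5S ribosomal RNA forms the particle that can bind Mdm2, read 12.35 to 12.44 in MSTN-null and 12.4 to 12.52 in wild-type pools, a difference of -0.05 (q = 0.489, limma). Rps19, the gene most often mutated in human Diamond-Blackfan anaemia, differed by -0.05 (q = 0.506). Rps20, mutated like Rps19 in mice with dark skin, differed by -0.04 (q = 0.573). Each of these 95% intervals held 0 and reached no lower than -0.1436.

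In hindquarters at 17.5 d.p.c. the members leaned upward together. Of 42, 37 (88.1%) had a positive difference, where 48.6% of genes and 62.3% of the 395 other probe sets brighter than 12 did. The median difference was 0.06, a 1.04-fold ratio, against -0.00112 over all probe sets and 0.02 over the bright ones. Large-subunit members were positive in 21 of 22 cases and small-subunit members in 16 of 20. The lean was not confined to the members. Among the related genes described below, 29 of 36 for ribosome biogenesis (median 0.06), 6 of 6 paralogs (0.15) and 2 of 2 other ribosomal parts (0.12) were positive. So were 12 of 18 other TOP mRNA genes (0.03), 17 of 25 initiation and elongation factors (0.01) and 11 of 21 genes that control ribosome synthesis (0.02). Genes of 1 pool share that pool's RNA and array, so the count of members is not a count of independent observations. The member mean differed by 0.055 between the genotypes, slightly more than the SD of either group, and the pools of the genotypes overlapped. The mean of the 42 members was 12.364 ± 0.0535 in MSTN-null and 12.309 ± 0.0323 in wild-type hindquarters (SD, n = 5 each).

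By pool, the member mean was 12.409, 12.434, 12.335, 12.32 and 12.322 in MSTN-null pools 1 to 5, against 12.272, 12.283, 12.311, 12.351 and 12.328 in wild-type pools. MSTN-null pools 1 and 2 stood above all wild-type pools, and the other MSTN-null pools lay among them. The median difference was 0.04 without MSTN-null pool 1 and 0.04 without pool 2. All 11 liver markers measured were lower on average in MSTN-null hindquarters (median difference -1.29), and 0 passed the test. Skeletal muscle markers were positive in 13 of 14 cases (median 0.17) and neuron markers in 2 of 8 (median -0.20), also with 0 called. The 3′ minus 5′ difference of the Gapdh controls on chip B was -0.0795 to -0.005 in MSTN-null and -0.0011 to 0.0353 in wild-type hindquarters, without overlap. The part of these in the members' shift was not tested. Fewer cells of a type and less RNA per cell cannot be told apart in such tissue pools. Without MSTN-null pool 5, the one with the lowest liver transcripts, the median member difference was 0.07 with 36 of 42 positive. It was 0.06 both without MSTN-null pool 4 (37 positive) and without wild-type pool 5 (35 positive).

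**Figure D2:**
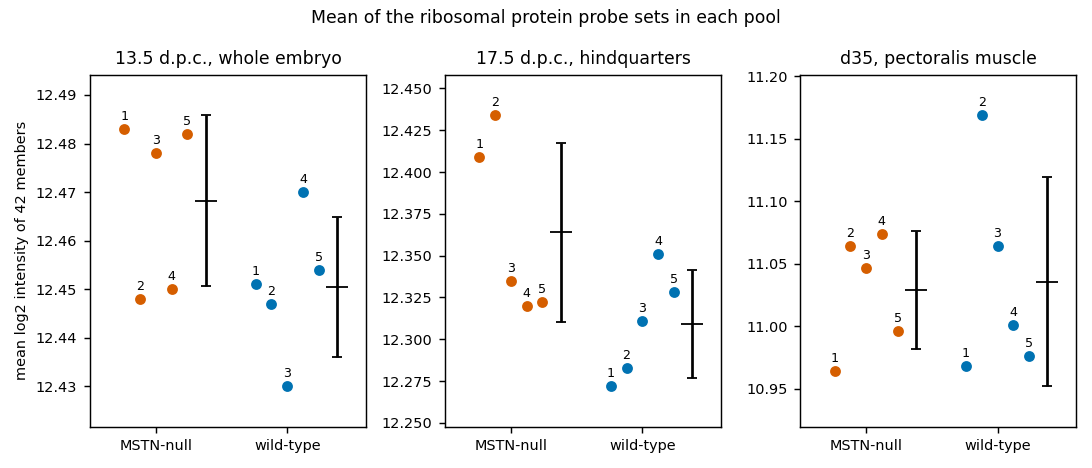
Mean log2 intensity of the 42 ribosomal protein probe sets (y axis, a scale of its own in each panel) in each pool, MSTN-null left and wild-type right, numbered by pool. Black marks are group means ± SD (n = 5). Groups overlap at every time point. MSTN-null pools 1 and 2 are highest at 17.5 d.p.c. and wild-type pool 2 is highest at d35.

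Rps19 had the smallest p in hindquarters. It read 13.21, 13.25, 12.98, 13.07 and 13.02 in MSTN-null pools, against 12.94, 12.97, 12.88, 12.98 and 12.89 in wild-type pools. The MSTN-null pools lay above the wild-type pools by unrounded value, MSTN-null pool 3 and wild-type pool 4 both rounding to 12.98. It was the 1 member of 42 whose groups did not overlap upward, and 0 did so downward, against 0.204% and 0.331% of probe sets. The ratio was 1.127-fold (95% interval 1.024 to 1.24), with q = 1 by limma, and MSTN-null pools 1 and 2 were the highest. At 13.5 d.p.c. its difference was -0.05 and at d35 -0.13, and in muscle it read 10.8 to 11.01 in MSTN-null and 10.87 to 11.4 in wild-type pools.

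Rps6, the small-subunit protein that S6 kinases phosphorylate downstream of mTOR complex 1, had the largest positive difference and one of the widest spreads. It read 8.7, 8.86, 8.29, 8.41 and 9.06 in MSTN-null pools, against 8.27, 7.87, 8.62, 8.73 and 8.34 in wild-type pools. The groups overlapped, the interval of the ratio ran from 0.9339 to 1.619, and q was 1. Its other probe set gave a difference of -0.07. At 13.5 d.p.c. Rps6 read 8.85 to 9.04 in MSTN-null and 8.85 to 9 in wild-type embryos, and at d35 7.02 to 7.26 in MSTN-null and 6.83 to 7.32 in wild-type muscle. The array measures its mRNA and not its phosphorylation.

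Rpl11 and Rpl27 were the next by p among the higher members at 17.5 d.p.c., with differences of 0.11 and 0.09 and 95% intervals of -0.016 to 0.236 and -0.020 to 0.198. Among the 5 negative members, Rpl27a, mutated in the sooty foot ataxia mouse, was farthest from 0. It read 7.83, 9.22, 8.97, 8.98 and 9.07 in MSTN-null pools, against 8.29, 9.11, 9.3, 9.13 and 9.14 in wild-type pools. Pool 1 of each genotype was far below the rest, and the fitted ratio of 0.8831 had an interval of 0.5897 to 1.322. Rps16 and Rps4x differed by -0.05 and -0.04. Rps16, like Rpl22, was read on chip B, whose wild-type pool 1 array stood apart. Without that pool the difference of Rps16 was 0.01, and q was 1 in both fits.

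In pectoralis muscle at d35 the members scattered to both sides. Of 42, 17 were positive and 25 negative, with a median of -0.02, where the median of all probe sets was 0.01 and 56% of them were positive. Of the 292 other probe sets brighter than 12, 42.8% were positive, with a median of -0.02. Small-subunit members were positive in 5 of 20 cases and large-subunit members in 12 of 22, with medians of -0.04 and 0.02. The mean of the 42 members was 11.029 ± 0.0471 in MSTN-null and 11.036 ± 0.0835 in wild-type muscle (SD, n = 5 each). By pool it was 10.964, 11.064, 11.047, 11.074 and 10.996 in MSTN-null muscle, against 10.968, 11.169, 11.064, 11.001 and 10.976 in wild-type muscle.

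The direction of that median rested on single pools. Wild-type pool 2 had the highest member mean, and 35 of 42 members lay above their 10-pool mean in it. Without this pool the median difference was 0.02, with 24 of 42 members positive and 11 of 20 in the small subunit. Without MSTN-null pool 1 it was 0.01. The same wild-type pool had the highest B cell marker level, a macrophage marker level of 8.81 (7.715 to 8.159 in MSTN-null and 7.926 to 8.268 in the other wild-type pools) and the largest actin 3′ minus 5′ difference on chip A (0.579, against 0.0599 to 0.211 in MSTN-null and 0.134 to 0.309 in the other wild-type pools). The part of these in its ribosomal protein levels was not tested.

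**Figure D3:**
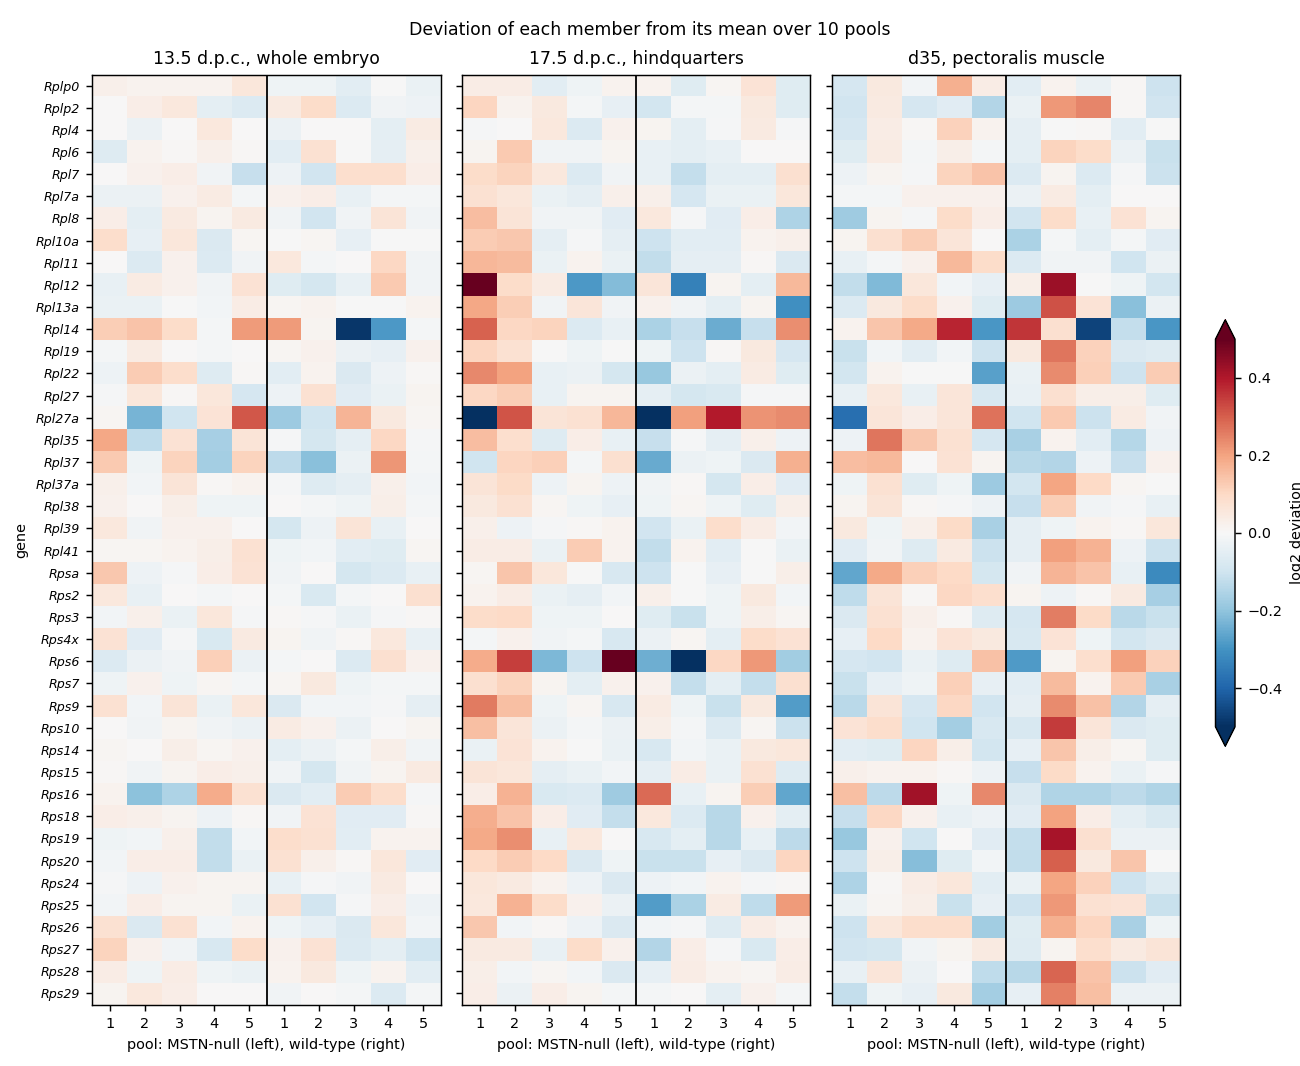
Deviation of each ribosomal protein gene (rows) from its mean over the 10 pools of a time point (columns, MSTN-null pools 1 to 5 left of the line and wild-type pools 1 to 5 right), red above and blue below, with the colour scale ending at 0.5 log2 units. Wild-type pool 2 at d35 and MSTN-null pools 1 and 2 at 17.5 d.p.c. are red over most rows, and no column block separates the genotypes.

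The 4 members with an unadjusted p under 0.05 at d35 were all higher in MSTN-null muscle. Rpl37 read 9.69, 9.7, 9.54, 9.61 and 9.55 in MSTN-null pools, against 9.4, 9.39, 9.51, 9.42 and 9.56 in wild-type pools, a 1.119-fold ratio (95% interval 1.034 to 1.21, limma q = 0.0774). Only wild-type pool 5 reached into the MSTN-null range. When probe sets at or below the median level were left out, its q was 0.0443, past the threshold. Rps16 read 5.12, 4.84, 5.39, 4.95 and 5.21 in MSTN-null pools, against 4.9, 4.82, 4.82, 4.84 and 4.82 in wild-type pools, a 1.2-fold ratio with q = 0.0787 on a probe set brighter than only 19.4% of those tested. Without MSTN-null pool 2, its lowest MSTN-null pool, q was 0.0316.

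Rpl10a read 11.79, 11.86, 11.9, 11.84 and 11.78 in MSTN-null muscle, against 11.62, 11.77, 11.73, 11.77 and 11.72 in wild-type muscle. All MSTN-null pools lay above all wild-type pools, though by little (1.08-fold, q = 0.156). It was the only member of 42 whose groups lay apart in this direction and 0 did in the other, where 2.77% and 2.48% of all probe sets did. Rpl35, which sits near the exit of the peptide tunnel, read 12.1 to 12.45 in MSTN-null and 12.02 to 12.2 in wild-type pools (1.107-fold, q = 0.175).

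Among the lower members Rps20, Rplp2 and Rpl22 had the smallest p. Rps20 read 11.43, 11.56, 11.32, 11.47 and 11.52 in MSTN-null muscle, against 11.41, 11.83, 11.58, 11.67 and 11.53 in wild-type muscle, a difference of -0.15 (q = 0.212, limma). Its other probe sets gave -0.03 to 0.07. Rplp2, an acidic stalk protein, read 12.2 to 12.39 in MSTN-null and 12.25 to 12.59 in wild-type pools (q = 0.218). Rplp0 of the same stalk went the other way (0.06), and Rpl12 at its base differed by -0.14 on a dim probe set. Rpl22 differed by -0.14 on its brightest probe set and by 0.06 and 0.13 on the other two (q = 0.221 for the first).

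**Figure D4:**
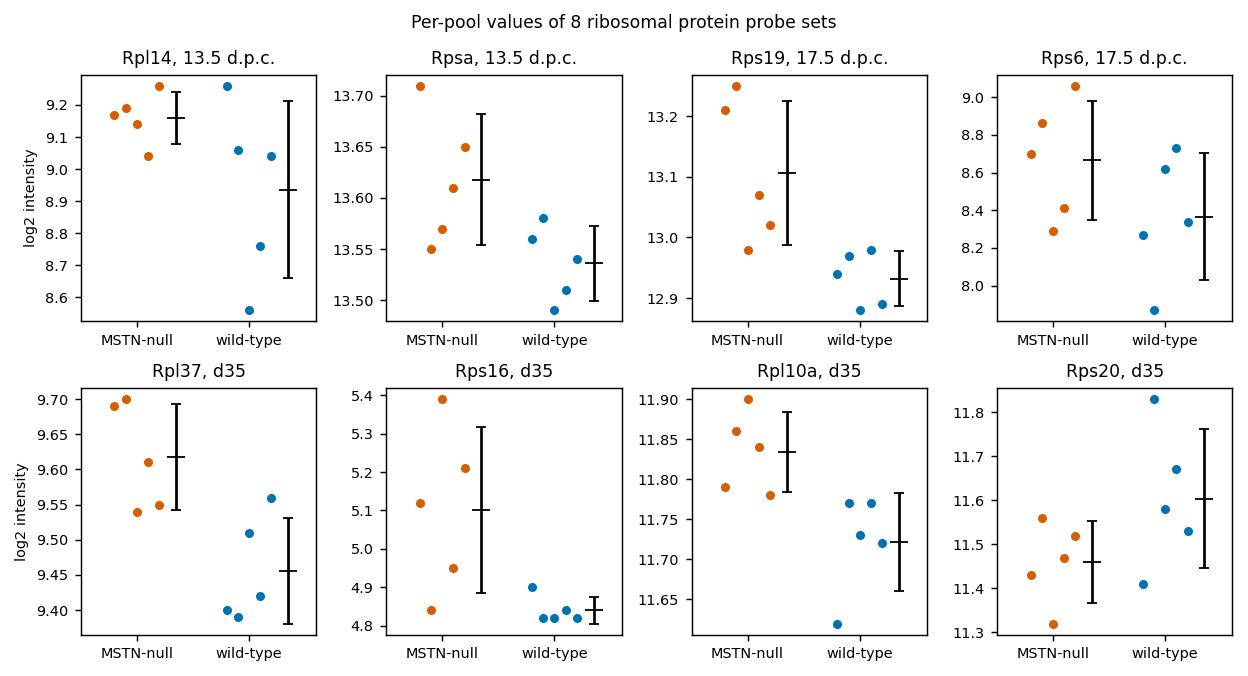
Log2 intensity (y axis, a scale of its own in each panel) of 8 members in the 5 MSTN-null pools (left) and 5 wild-type pools (right), at the time point named above each panel. Black marks are means ± SD. Rpl10a at d35 shows groups that do not overlap. Those of Rps19 at 17.5 d.p.c. meet at 12.98 in the rounded values drawn and do not overlap by unrounded value. The others overlap.

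By place in the ribosome, the members split as follows. The stalk proteins Rplp0, Rplp2 and Rpl12, which recruit the translation GTPases, were positive in 2, 3 and 1 of 3 cases at the time points in order. Rpl19, Rpl22, Rpl35 and Rpl39, which lie around the exit of the tunnel for the new peptide, were positive in 4, 4 and 1 of 4 cases, with differences between -0.14 and 0.15 at d35. Rps2, Rps3 and Rps15, at the mRNA entry and decoding region of the small subunit, were positive in 3, 2 and 2 of 3 cases and stayed between -0.02 and 0.06 throughout.

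Dim probe sets carried several of the wider intervals. Of the probe sets below a level of 10, which read 8 members at 13.5 d.p.c. and 9 at each later age, those of Rpl39 and Rps27 differed by 0.03 and 0.05 in whole embryos and by 0.01 and 0.07 in hindquarters. Rpl12 at 17.5 d.p.c. read 8.05 to 8.86 in MSTN-null and 8 to 8.5 in wild-type pools, a difference of 0.06 with an interval of -0.2643 to 0.3785. At d35 Rpl14 read 6.41 to 7.08 in MSTN-null and 6.24 to 7.06 in wild-type muscle, a difference of 0.18 with an interval of -0.1365 to 0.4915. Rpl14 was thus positive at each time point (0.22, 0.16 and 0.18), with q of 0.307, 1 and 0.364 by limma. Rps25 at d35 differed by -0.06.

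Over all 94 probe sets of the members, 51, 78 and 41 were positive at the 3 time points in order, with medians of 0.01, 0.05 and -0.01. A second probe set of Rps24 had the smallest p of all 94 at d35 (difference -0.27, q = 0.0572 by limma). It was dim, averaging 4.512 in MSTN-null and 4.78 in wild-type muscle. No probe set of a member differed from the chosen one by more than 1 log2 unit in its genotype difference.

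Members known from mutants and disease are given by count. Of the 6 with mouse mutants in the list (Rpl27a, Rpl38, Rps6, Rps7, Rps19 and Rps20), 2, 5 and 2 were positive at the 3 time points in order, with medians of -0.01, 0.08 and -0.05. Rpl38, whose loss in the Tail short mouse alters the translation of Hox mRNAs, differed by 0.00, 0.03 and 0.02. It read 13.58 to 13.63 in MSTN-null and 13.58 to 13.63 in wild-type embryos, 13.47 to 13.59 in MSTN-null and 13.45 to 13.54 in wild-type hindquarters, and 12.58 to 12.67 in MSTN-null and 12.49 to 12.73 in wild-type muscle. Rps7 differed by -0.01, 0.07 and -0.04. Of 12 members linked to Diamond-Blackfan anaemia, 6, 11 and 2 were positive, where 28, 37 and 17 of all 42 members were.

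The members moved together from pool to pool within a genotype more at the later time points. Each member was correlated with the mean of the other members over the 10 pools, after removal of the genotype means. The median r was 0.242 at 13.5 d.p.c., 0.544 at 17.5 d.p.c. and 0.702 at d35. It was positive for 26, 40 and 39 of the 42 members. These points share arrays, and pool 2 of the wild-type weighed on the last value (0.565 without it, n = 9 pools). The SD of the member mean between pools of a genotype also rose, from 0.0161 to 0.0442 and 0.0678. No such r was computed for other genes, so the rise is not shown to be particular to the members.

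No member was called for a change of its genotype difference between time points. In 1 limma fit of all 30 pools, 0 of 42 members were called in each of the 3 contrasts. Each age was a different tissue, so these contrasts cannot tell age from tissue. The study's authors held that its time points cannot be compared, because the tissues differ. The fit also takes the same residual variance of a probe set for all ages, while the members' median SD was 0.0465, 0.0663 and 0.106 in order of age. Between the first pair of ages, 0% of probe sets were called and 6.26% had an unadjusted p under 0.05, as did 2 members. Between 13.5 d.p.c. and d35 the shares were 1.17% and 11.9%, with 3 members, and between 17.5 d.p.c. and d35 0.715% and 11.8%, with 6 members. The smallest q over these contrasts was 0.134.

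In the separate fits of each time point with all pools, genes that make and regulate ribosomes included called differences. All were at d35 and all were higher in MSTN-null muscle. These lists were drawn up with earlier results of these data known. Over all probe sets at d35, 2.08% were called higher, 2.5% lower and 56% were positive. Of the cell type markers, those of adipocytes were positive in 0 of 7 cases with 4 called lower (median -0.48). Macrophage markers were positive in 0 of 8, T cell markers in 0 of 7 and B cell markers in 1 of 8 cases, with 0 called, and skeletal muscle markers in 12 of 14 with 2 called higher and 1 lower. The part of these in the related genes' differences was not tested. Of 36 ribosome biogenesis genes measured, 4 were higher, 0 were lower, 26 were positive and the median was 0.09. Rrp12, which exports and processes pre-ribosomes, read 7.92, 7.84, 7.86, 7.86 and 7.68 in MSTN-null muscle, against 7.58, 7.42, 7.43, 7.48 and 7.52 in wild-type muscle (1.272-fold, 95% interval of the log2 difference 0.23 to 0.46, limma q = 0.00332). Rrn3, an initiation factor of RNA polymerase I, rose 1.184-fold (q = 0.0213), and the large-subunit assembly factors Bop1 and Brix1 rose 1.132-fold and 1.141-fold (q = 0.0289 and 0.0326).

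Of 21 genes that control ribosome synthesis, 4 were higher and 0 lower at d35. They were the kinase Akt2 (1.205-fold, q = 0.00672), the mTOR inhibitor Deptor (1.167-fold, q = 0.0278), the TOP mRNA binder Larp1 (1.153-fold, q = 0.0322) and the cap-binding inhibitor Eif4ebp2 (1.195-fold, q = 0.0483). Akt2 read 10.32 to 10.38 in MSTN-null and 9.99 to 10.17 in wild-type muscle, without overlap. Of 25 initiation and elongation factors 3 were higher and 0 lower: Eef2k, the kinase that inhibits elongation factor eEF2 (1.246-fold, q = 0.00773), Eif2s2, a subunit of initiation factor eIF2 (1.237-fold, q = 0.021), and Eef1e1, a part of the multisynthetase complex (1.191-fold, q = 0.0275). Many of these calls were lost when 1 pool was left out. Over all these lists 12 genes were called, against 3 without wild-type pool 3, 4 without MSTN-null pool 3 or pool 4, 6 without MSTN-null pool 2 and 7 without wild-type pool 2. The Benjamini-Hochberg adjustment called 8, without Brix1, Eif4ebp2, Larp1 and the paralog Rps27l. In 1 fit of all 30 pools, Brix1, Eef1e1, Eif4ebp2, Rps27l and Rrn3 were not called. At the embryonic ages none of the 108 related genes measured was called by limma, and the counts with an unadjusted p under 0.05 stood at 7 and 6.

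Of 18 other genes with TOP mRNAs, 0 were called in the separate fits of each time point with all pools. Eef1a1, the elongation factor that brings tRNAs to the ribosome, differed by -0.33 at d35. In 1 fit of all 30 pools it was called lower in MSTN-null muscle (limma q = 0.00888). Without wild-type pool 5 it was also called lower (difference -0.41, limma q = 0.038). Of 6 paralogs of ribosomal proteins measured, 1 was called. Rps27l, a paralog of Rps27, read 10.8, 11, 10.97, 11 and 11.04 in MSTN-null muscle, against 10.74, 10.45, 10.52, 10.71 and 10.87 in wild-type muscle (1.235-fold, q = 0.0358), on a probe set whose suffix marks probes that can also bind other transcripts. The call was lost when MSTN-null pool 2, 3, 4 or 5 or wild-type pool 2 or 3 was left out (q of 0.0683 to 0.113). Rps27 itself differed by -0.06. Rpl3l, which in striated muscle takes the place of Rpl3, read 11.88 to 12.03 in MSTN-null and 11.69 to 12.01 in wild-type muscle (difference 0.10, q = 0.318). Rpl22l1, Rpl39l, Rpl7l1 and Rps4l had q of 0.26 or more at d35. Fau, the source of a small-subunit protein, differed by -0.12 and Rsl24d1, a factor of large-subunit assembly, by -0.06 (q = 0.337 and 0.347).

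**Figure D5:**
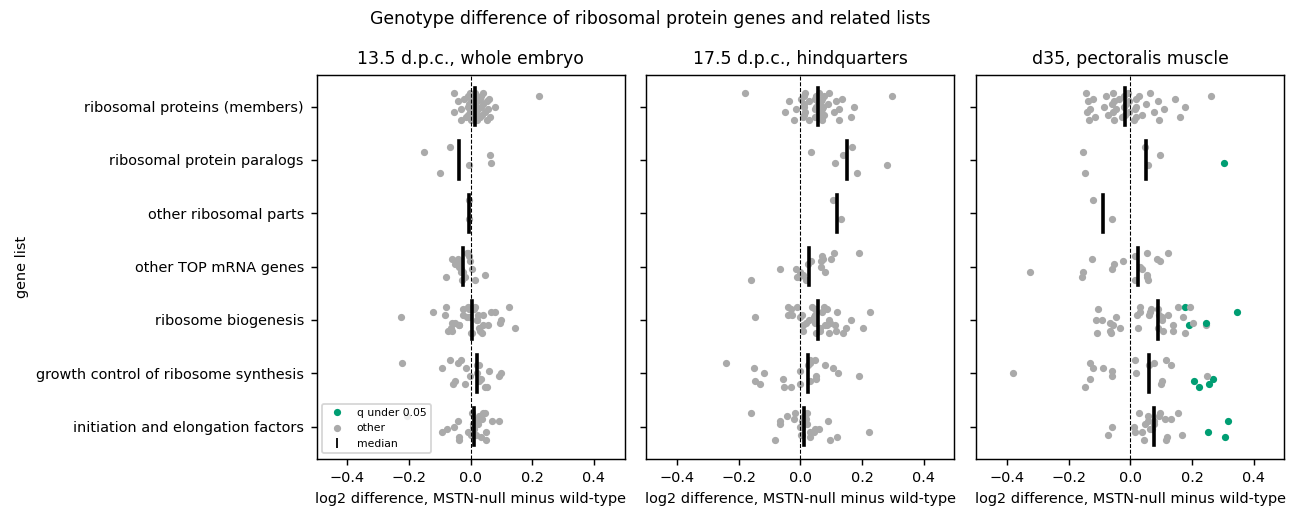
Log2 difference between MSTN-null and wild-type pools (x axis) of every measured gene in the ribosomal protein list and in 6 related lists (y axis), with the list median as a black bar. Green points had a Storey q under 0.05. They occur only at d35, on the positive side, and none is a ribosomal protein of the main list.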

How the data were processed

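The authors deposited RMA values, that is log2 intensities made with the affy package in R, for each array of 3 pooled animals. Package versions are not given in the sources used here. RMA subtracts background, equalises the distributions of the arrays and summarises the probes of each probe set, so a shift common to all transcripts is removed, and no detection calls remain. Chip A and chip B arrays with the same genotype, age and replicate number in their titles were taken as 1 pool. 0 columns of other samples were present. The 64 control probe sets per chip were left out, and of 100 probe sets on both chips the chip A value was used.

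Genotypes were compared within each time point in R 4.3.3 with the lmFit and eBayes functions of limma 3.58.1, over all 45037 probe sets, with Storey q-values called at 0.05. Differences between time points came from 1 fit of 30 pools. The scripts were tested on simulated data with probe sets drawn independently. Recovery was required there only for changes far larger than those of the members, so it is no check on differences as small as theirs. The p-values set each genotype difference against the spread between pools of 3 animals, as moderated by limma over all probe sets. The number of arrays limits the precision. Named members were those called, the 3 higher and the 3 lower ones with the smallest p, the 4 brightest and 4 dimmest, members with roles in the stalk, the 5S particle, kinase signalling or mouse mutants, all measured paralogs and other ribosomal parts, and up to 4 called genes of each related list. Rpl38 and Rps7 fall under the mouse mutants. Members and lists were chosen with earlier results of these data known. Alternatives covered the adjustment, further normalization, a filter on dim probe sets, the moderation, the choice of probe set, a replicate block and leaving out each pool.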

Additional observations from a re-analysis of the deposited data

Results flagged for a closer look

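In 8 of 192 groups of 5 pools checked, 1 pool lay far from the other 4 by Dixon's criterion (0.71 of the group's range), where chance gives about 1 in 20 groups. At 17.5 d.p.c. Rpl27a stood apart in both genotypes. It read 7.83 in MSTN-null pool 1, where the rest of that genotype gave 8.97 to 9.22, and 8.29 in wild-type pool 1 against 9.11 to 9.3 in the other wild-type pools. Fau read 12.73 in wild-type pool 5 at that time point against 13.05 to 13.14 in the other wild-type pools.

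At 13.5 d.p.c. Rpl7l1, a paralog of Rpl7, read 10.16 in MSTN-null pool 2 where the rest of that genotype gave 9.85 to 9.91. Rps29 read 14.07 in wild-type pool 4 against 14.12 to 14.14 in the other wild-type pools. At d35 Rps6 read 7.26 in MSTN-null pool 5 where the rest of that genotype gave 7.02 to 7.08. Rpl12 read 6.85 in wild-type pool 2 against 6.33 to 6.45, and Rps16 read 4.9 in wild-type pool 1 against 4.82 to 4.84, in the other wild-type pools.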

How the results depend on the processing

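Under the alternatives run, 0 members were called at either embryonic age. At d35, 1 was called when probe sets at or below the median level were left out (Rpl37, with 40 of 42 members tested), and 0 to 1 when a pool was left out (Rps16, without MSTN-null pool 2). The cause was not tested. The median member difference ranged from 0.00539 to 0.019 at 13.5 d.p.c., 0.0409 to 0.0762 at 17.5 d.p.c. and -0.0337 to 0.0214 at d35, where it was positive without wild-type pool 2 (0.018), without MSTN-null pool 1 (0.00739) and after further quantile normalization (0.0214). Without MSTN-null pool 5 and wild-type pool 1 together, an alternative chosen after seeing the data, 35 of 42 members were positive at 17.5 d.p.c. Of the related genes, 2 were called lower in MSTN-null embryos at 13.5 d.p.c. with probe sets above the median level and 2 with eBayes trend and robust settings, and 0 to 2 when a pool was left out (named after their values were seen, Eif3a, a subunit of initiation factor eIF3, and Tsc1, an inhibitor of mTOR complex 1). At d35 leaving out a pool gave 3 to 13 calls, and 18 were called with probe sets above the median level. Some of these were lower in MSTN-null muscle: 1 of the 18, 2 of 12 in one fit of 30 pools and 1 of 9 without wild-type pool 5, namely Ybx1, then Eef1a1 and Foxo1, then Eef1a1, named after their values were seen. With the replicate number as a block, 0 members were called at each time point and 9 related genes at d35. Same-numbered pools did not deviate together throughout (r from -0.1 to 0.0757, -0.199 to 0.485 and -0.172 to 0.139 at the 3 time points). Of 5 numbers, 0, 3 and 0 matched best with their own. The 3 at 17.5 d.p.c. were numbers 1, 3 and 5 (r of 0.304, 0.388 and 0.485). The numbers were not taken as pairs at any age in the main fits, so a pairing at 17.5 d.p.c. would be ignored there. RMA compresses differences of dim probe sets, and dim members such as Rps16 have no detection call.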

Other observations

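The mitochondrial ribosomal proteins, which are nuclear-encoded parts of the separate ribosome inside mitochondria, were measured as 76 genes in a list added after values had been seen. At 17.5 d.p.c. 70 of 76 had a positive difference (MSTN-null minus wild-type), with a median of 0.07 and 0 called by limma, where 4 had an unadjusted p under 0.05. At d35 29 were positive, 5 were called lower and 0 higher in MSTN-null muscle, and the median was -0.03. At 13.5 d.p.c. 33 were positive and the median was -0.01, with 0 called and 7 at an unadjusted p under 0.05.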
